A study of Mus musculus with 15 samples.

Results

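The MIP-type CC chemokines were taken here as the genes Ccl3, Ccl4, Ccl5, Ccl6 and Ccl9, which were found by mapping the Ensembl identifiers of the count table to mouse symbols. All 5 were present among the 55385 genes of the table, and all 5 passed the expression filter that left 13005 genes for testing. Their transcripts were followed in bone marrow-derived macrophages (BMDMs) of 6-week-old BALB/c mice, in 15 RNA-seq libraries that fell into 6 groups. STAT5fl/fl macrophages carry floxed Stat5 alleles and no Cre, and served as controls. STAT5cKO macrophages carry the same floxed alleles together with Csf1r-iCre, a Cre recombinase under the promoter of the M-CSF receptor gene, which is active in the macrophage lineage and is not confined to cultured macrophages. Each genotype received serum-free DMEM, 20 ng/mL recombinant mouse GM-CSF (rmGM-CSF) or conditioned medium from the BALB/c mammary tumor line 4T1 (4T1 CM), for 2 h as the study describes the experiment. Each STAT5fl/fl group had 2 libraries (numbered 112 and 113) and each STAT5cKO group had 3 (numbered 114, 115 and 116). The third STAT5fl/fl replicate was removed by the authors at quality control, so each control mean rested on n = 2. The comparisons asked how far the response of these genes to GM-CSF and to tumor cell medium depended on STAT5.

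CC chemokines are small secreted proteins that attract leukocytes by binding G protein-coupled receptors. Ccl3 (MIP-1α) and Ccl4 (MIP-1β) are released early by stimulated macrophages, and CCR1 is a receptor of Ccl3. Ccl5 (RANTES) binds CCR1 and CCR3 and is a product of activated T cells as well as of macrophages. Ccl6 and Ccl9 (MIP-1γ) are rodent chemokines of myeloid cells that bind CCR1 and are present in macrophages without acute stimulation. GM-CSF signals through JAK2 and STAT5 and also reaches the NF-kB and MAP kinase pathways.

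The 5 genes lay in a single stretch of 138906 bp on chromosome 11 of GRCm38. Ccl5 spanned chr11:83525778-83530518, Ccl9 chr11:83572919-83578636, Ccl6 chr11:83587882-83593087 and Ccl3 chr11:83647844-83649355, all on the minus strand. Ccl4, at chr11:83662584-83664683, was on the plus strand and was separated from Ccl3 by 13228 bp. Ccl9 and Ccl6 were the closest pair, 9245 bp apart. Stat5b, on the same chromosome, was 17.1 Mb from Ccl4. Ccl6 overlapped the antisense gene E230016K23Rik, which had 162 counts over the 15 libraries; counting used the strand, so these reads were kept apart from those of Ccl6.

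Promoter windows in the RefSeq table (GRCm38.p6) were matched for 3 of the 5 genes, Ccl3, Ccl6 and Ccl9. They are printed because the transcripts of all 3 moved with rmGM-CSF and with genotype. Each run is the 250 bases before the RefSeq transcription start, 5′ to 3′ on the minus strand. Capitals mark matches, on either strand, to TTCNNNGAA (the STAT5 motif), TGANTCA (AP-1), TTNNGNAA (C/EBP) or the kappa-B consensus.
Ccl3 (chr11:83649379-83649628): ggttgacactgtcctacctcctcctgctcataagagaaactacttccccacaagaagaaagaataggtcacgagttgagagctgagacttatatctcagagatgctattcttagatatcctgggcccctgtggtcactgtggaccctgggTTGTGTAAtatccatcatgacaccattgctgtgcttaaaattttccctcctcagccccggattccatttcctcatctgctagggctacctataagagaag
Ccl6 (chr11:83593088-83593337): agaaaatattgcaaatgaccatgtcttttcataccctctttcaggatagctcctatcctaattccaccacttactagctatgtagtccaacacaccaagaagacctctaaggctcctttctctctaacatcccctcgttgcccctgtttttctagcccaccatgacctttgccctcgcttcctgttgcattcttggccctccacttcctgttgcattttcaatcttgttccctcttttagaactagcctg
Ccl9 (chr11:83578637-83578886): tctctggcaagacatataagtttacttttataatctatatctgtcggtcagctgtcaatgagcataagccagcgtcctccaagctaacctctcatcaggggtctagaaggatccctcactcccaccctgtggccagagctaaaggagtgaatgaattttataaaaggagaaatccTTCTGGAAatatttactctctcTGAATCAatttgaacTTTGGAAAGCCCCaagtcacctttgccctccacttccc
The STAT5 letters were in none of the 3 windows, and 7.02% of all 32851 windows of this length held them. The Ccl9 window held an AP-1 match 53 bases before the start, a kappa-B match 35 bases before it, and C/EBP matches 75 and 38 bases before it, the nearer of which overlapped the kappa-B match. Among all windows, 6.75% held the AP-1 letters, 3.90% the kappa-B consensus and 36.8% the C/EBP letters. The Ccl3 window held 1 match, to C/EBP, 100 bases before the start, and the Ccl6 window held none. The Ccl3 start in RefSeq lies 23 bases upstream of the start of its GENCODE transcript. The Ccl6 and Ccl9 windows shared a run of 13 identical bases, which began 55 bases before the Ccl6 start and 14 bases before the Ccl9 start. The longest run that the Ccl3 window shared with either of them was 8 bases. How often other windows share runs of such lengths was not counted. Within the Ccl6 window a run of 14 bases was repeated, beginning 73 and 47 bases before the start.

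The libraries held between 16016736 and 22883108 counts, with a median of 21379480, and 3 counts corresponded to between 0.124 and 0.192 normalized CPM (a gene's counts scaled to a common library size). The genotype labels were borne out by the targeted genes: Stat5a had 637 to 918 counts in STAT5fl/fl libraries and at most 3 in STAT5cKO libraries, and Stat5b had 977 to 1654 and at most 4. All 7 macrophage markers examined were expressed, with Csf1r between 3825 and 4204 CPM in every library, and all 6 T and NK cell markers had at most 3 counts in each library. The summed macrophage markers nevertheless differed by genotype, from 23853 to 27206 CPM in STAT5fl/fl and from 29977 to 42693 CPM in STAT5cKO libraries. The highest sum was that of the STAT5cKO 4T1 CM library numbered 115, described below. Most of the sum was Lyz2, the lysozyme gene, at 17036 to 19703 and 23365 to 34471 CPM. The markers did not move together. With DMEM, mean Adgre1 (957 against 815 CPM) and Mertk (24.9 against 21.2) were, like Lyz2, higher in STAT5cKO than in STAT5fl/fl cells. Those of Cd68 (1597 against 1761), Itgam (113 against 127) and Fcgr1 (106 against 123) were lower, and Csf1r overlapped. The summed fibroblast markers were low, at 4.13 to 8.60 CPM in STAT5fl/fl and 7.33 to 12.8 CPM in STAT5cKO libraries. The share of counts from mitochondrial genes was 1.78 to 2.27% in STAT5fl/fl and 1.48 to 1.99% in STAT5cKO libraries, and within each treatment the genotypes did not overlap. The part of these differences in the genotype results for the chemokines was not tested. In bulk RNA, fewer expressing cells and less RNA per cell cannot be told apart.

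The STAT5cKO library numbered 115 with 4T1 CM stood apart, and Ccl5 was among the genes that set it apart. In this library 11 tested genes were more than 2-fold above all 14 other libraries, against 7 genes in the STAT5cKO 4T1 CM library numbered 116 and 0 or 1 in each of the rest. Ccl5 was at 124 CPM there, 8.30 times the next highest library. Saa3, an acute phase serum amyloid gene, was at 630 CPM against 0.910 to 16.7 CPM in the others, Hp (haptoglobin) was at 22.3 CPM against at most 4.12, and Irf7, a regulator of the interferon response, was at 444 CPM against at most 168. T and NK cell markers summed to 0 counts in this library, as in the rest of its group. Its summed macrophage markers (42693 CPM) and its low summed neutrophil markers (2.46 CPM) were the highest of all libraries. Its summed monocyte, dendritic cell and fibroblast markers were the lowest of its group. No other member was more than 2-fold above all other libraries in it, but its Ccl3 (5.86 CPM) and Ccl4 (3.45 CPM) were the lowest of the 15 libraries. Results for Ccl5 are given below with and without it, a choice made after the data were seen.

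**Figure D1:**
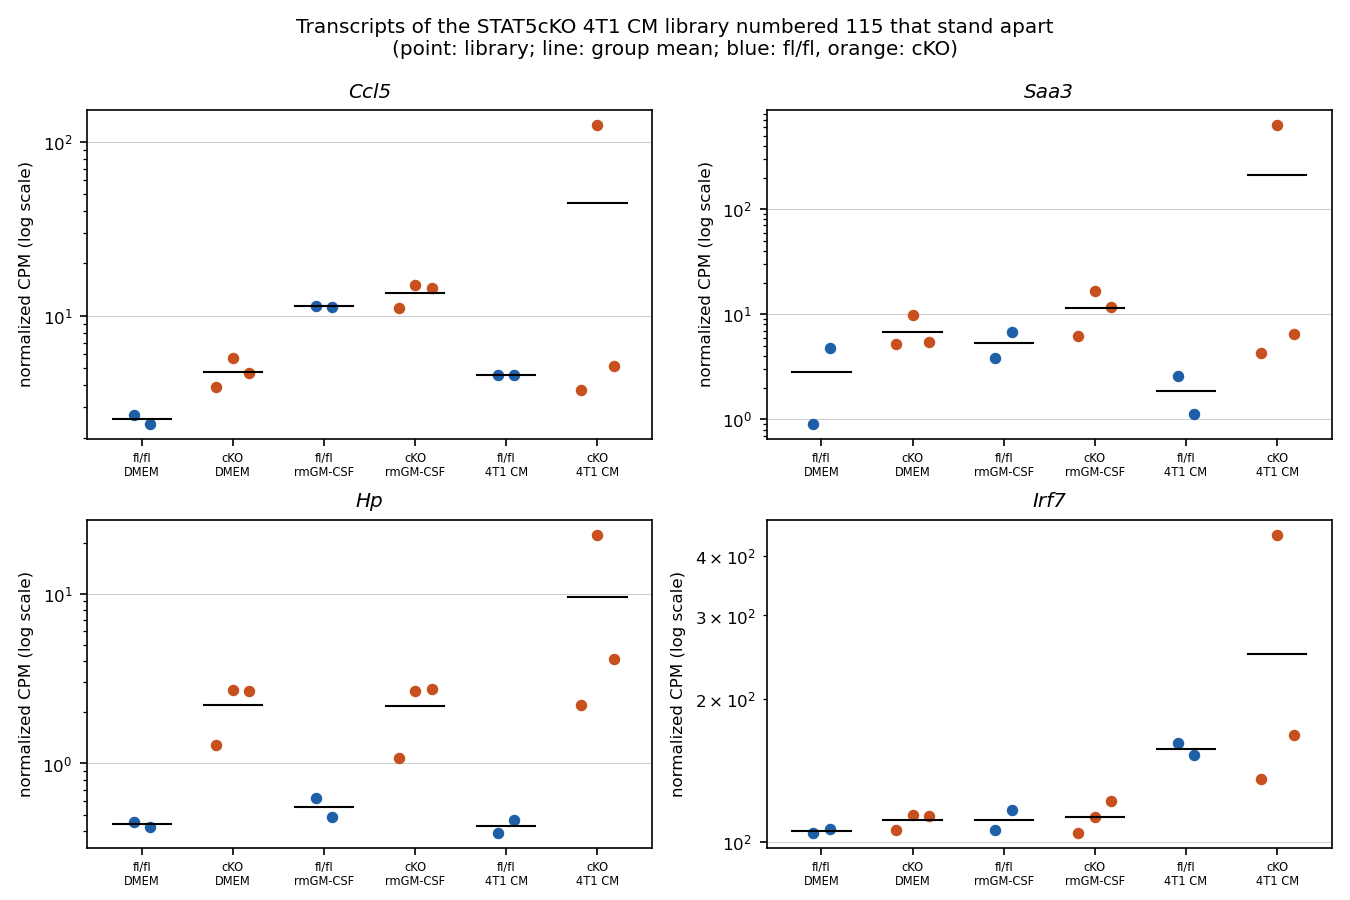
Normalized CPM (log axis) of Ccl5, Saa3, Hp and Irf7 in each library by group; points are libraries and black lines are group means. In each panel 1 STAT5cKO 4T1 CM point, the library numbered 115, lies far above the others, at 124 CPM for Ccl5 and 630 CPM for Saa3.

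Compared per length of exon, Ccl9 and Ccl6 led in unstimulated macrophages and Ccl3 led after rmGM-CSF in STAT5fl/fl cells. The order depends on the summed length of all annotated exons, 3045 bp for Ccl9 and 766 bp for Ccl3. In CPM not divided by length, Ccl9 (1676) was above Ccl3 (498) in STAT5fl/fl cells with rmGM-CSF. The order in STAT5fl/fl cells with DMEM was Ccl9 (128 CPM per kb), Ccl6 (97.3), Ccl3 (59.8), Ccl4 (25.1) and Ccl5 (2.65), and no neighbours overlapped between libraries. With rmGM-CSF, Ccl3 reached 650 CPM per kb in STAT5fl/fl cells, above Ccl9 at 551, while Ccl6 (347) and Ccl4 (316) overlapped, and Ccl5 was at 11.8. With 4T1 CM the STAT5fl/fl order was Ccl9 (297), Ccl6 (185), then Ccl4 (19.0) and Ccl3 (15.3), which overlapped, and Ccl5 (4.78). Per kb, Ccl3 thus stood highest of the 5 with one stimulus and, with Ccl4, far below Ccl9 and Ccl6 with the other.

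In STAT5cKO cells Ccl9 had the highest level per kb under all 3 treatments. With DMEM it was at 176 CPM per kb, followed by Ccl6 (66.2) and Ccl3 (60.2), which overlapped, Ccl4 (25.2) and Ccl5 (4.98). With rmGM-CSF Ccl9 was at 398 and Ccl3 at 237, while Ccl4 (89.8) and Ccl6 (89.4) did not differ beyond their spread, and Ccl5 was at 14.1. With 4T1 CM Ccl9 was at 288 and Ccl6 at 96.9, and Ccl3 (8.87) and Ccl4 (7.70) overlapped. Ccl5 ranged from 3.89 to 130 CPM per kb there because of the library numbered 115, and so overlapped Ccl6, Ccl3 and Ccl4.

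**Figure D2:**
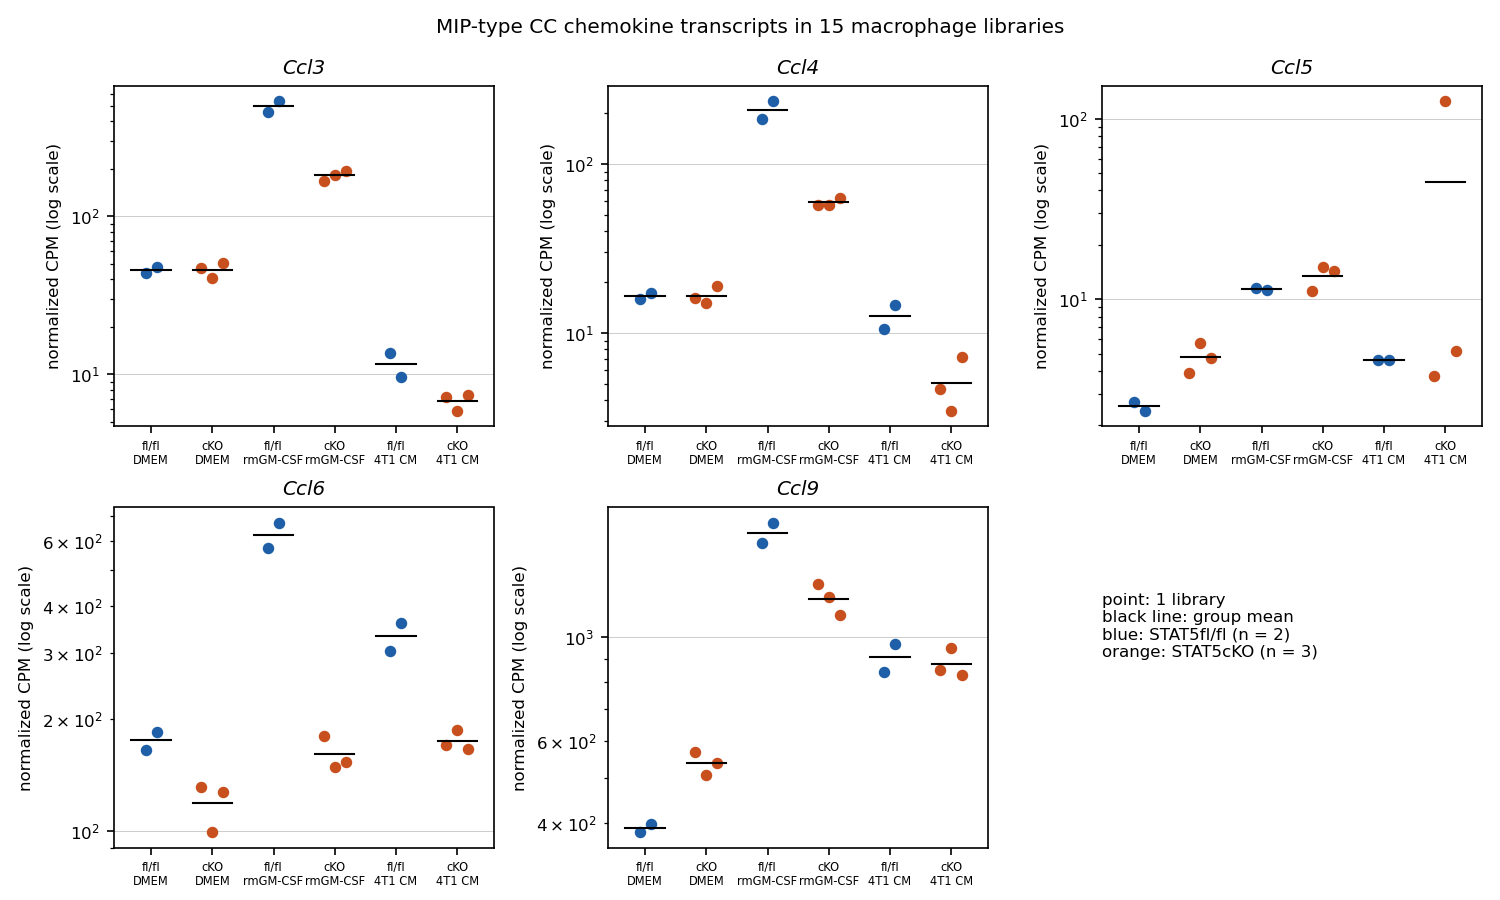
Normalized CPM (log axis) of Ccl3, Ccl4, Ccl5, Ccl6 and Ccl9 by group; each point is a library (2 for STAT5fl/fl, 3 for STAT5cKO) and black lines are group means. With rmGM-CSF the STAT5cKO points of Ccl3, Ccl4, Ccl6 and Ccl9 all lie below the STAT5fl/fl points.

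Ccl3 transcripts were at the same level in both genotypes before stimulation, rose with rmGM-CSF and fell with 4T1 CM. With DMEM, Ccl3 was at 43.8 and 47.7 CPM in the STAT5fl/fl libraries and at 47.0, 40.5 and 50.8 CPM in the STAT5cKO libraries, and the groups overlapped. With rmGM-CSF it was at 461 and 535 CPM in STAT5fl/fl and at 168, 183 and 194 CPM in STAT5cKO libraries. Every rmGM-CSF library was above every DMEM library, and every STAT5cKO library was below both controls. With 4T1 CM, Ccl3 was at 13.7 and 9.66 CPM in STAT5fl/fl and at 7.15, 5.86 and 7.39 CPM in STAT5cKO libraries, below all DMEM libraries.

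The rise of Ccl3 over DMEM was 10.9-fold in STAT5fl/fl cells (log2 fold change 3.44 ± 0.13 SE, adjusted p = 1.10e-12, edgeR quasi-likelihood test with Benjamini-Hochberg adjustment here and below). In STAT5cKO cells it was 3.94-fold (1.98 ± 0.10, adjusted p = 9.01e-11). The rise was smaller in STAT5cKO cells, with a genotype difference in the response of -1.47 ± 0.16 on the log2 scale (adjusted p = 1.10e-05). With 4T1 CM, Ccl3 fell by 1.96 ± 0.15 in STAT5fl/fl and by 2.76 ± 0.13 in STAT5cKO cells on the log2 scale (adjusted p = 5.90e-09 and 7.89e-12). The difference between these responses was -0.80 ± 0.20 and missed the threshold of 0.01 (adjusted p = 0.0357).

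Between genotypes, Ccl3 differed by 0.011 ± 0.12 on the log2 scale with DMEM (adjusted p = 0.971). It was 2.74-fold lower in STAT5cKO than in STAT5fl/fl cells with rmGM-CSF (-1.46 ± 0.10, adjusted p = 2.01e-08). With 4T1 CM it was 1.72-fold lower (-0.79 ± 0.16, adjusted p = 0.00308). The 4T1 CM call was lost without replicate 112 (-0.50, adjusted p = 0.0871), 114 (-0.82, adjusted p = 0.0103) or 115 (-0.69, adjusted p = 0.0139). It was also lost with limma (-0.77, adjusted p = 0.0133) and in a model of the 4T1 CM libraries alone (-0.79, adjusted p = 0.0301). Leaving out only the STAT5cKO 4T1 CM library numbered 115 lost it as well (-0.69, adjusted p = 0.0135). The rmGM-CSF call was kept under all 15 alternatives tried.

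Ccl4 followed Ccl3 with rmGM-CSF and departed from it with 4T1 CM. With DMEM, Ccl4 was at 15.9 and 17.3 CPM in STAT5fl/fl and at 16.004, 15.023 and 18.8 CPM in STAT5cKO libraries, and the genotypes overlapped. With rmGM-CSF the values were 184 and 234 CPM in STAT5fl/fl and 57.3, 57.3 and 63.1 CPM in STAT5cKO libraries. With 4T1 CM they were 10.5 and 14.6 CPM in STAT5fl/fl and 4.64, 3.45 and 7.16 CPM in STAT5cKO libraries. In STAT5cKO cells 4T1 CM took Ccl4 well below all DMEM libraries, whereas the STAT5fl/fl values lay only just below those of DMEM.

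Ccl4 rose 12.6-fold with rmGM-CSF in STAT5fl/fl cells (3.65 ± 0.18, adjusted p = 3.59e-11) and 3.55-fold in STAT5cKO cells (1.83 ± 0.15, adjusted p = 3.30e-08). The response was smaller in STAT5cKO cells (difference -1.82 ± 0.23 on the log2 scale, adjusted p = 6.81e-05). With 4T1 CM the change in STAT5fl/fl cells was -0.41 ± 0.20 and did not pass the test (adjusted p = 0.110). In STAT5cKO cells Ccl4 was 3.26-fold lower than with DMEM (-1.70 ± 0.19, adjusted p = 8.31e-07). The test of the difference between these responses gave -1.30 ± 0.28 with adjusted p = 0.0160, short of the threshold. Between genotypes Ccl4 differed by 0.0034 ± 0.18 with DMEM (adjusted p = 0.994), was 3.53-fold lower in STAT5cKO cells with rmGM-CSF (-1.82 ± 0.14, adjusted p = 5.83e-08) and 2.45-fold lower with 4T1 CM (-1.29 ± 0.22, adjusted p = 0.000641). The last call was lost without replicate 113 (-1.04, adjusted p = 0.0320) and in a model of the 4T1 CM libraries alone (-1.30, adjusted p = 0.0190).

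The balance between the paired genes Ccl3 and Ccl4, read as the ratio of their counts within a library, moved with the stimulus. It was 2.76 in both STAT5fl/fl DMEM libraries and 2.70 to 2.94 in STAT5cKO DMEM libraries. With rmGM-CSF it was 2.29 to 2.51 in STAT5fl/fl and 2.93 to 3.19 in STAT5cKO libraries, so the genotypes did not overlap. After 4T1 CM it was 0.661 to 1.31 in STAT5fl/fl and 1.03 to 1.70 in STAT5cKO libraries, below every DMEM library, which shows that Ccl3 fell further than Ccl4. The ratios are given as a description with no test.

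Ccl6 was lower in STAT5cKO than in STAT5fl/fl libraries under every treatment, although the DMEM call was lost under several alternatives given below. With DMEM it was at 165 and 185 CPM in STAT5fl/fl and at 131, 98.9 and 127 CPM in STAT5cKO libraries. With rmGM-CSF it was at 575 and 670 CPM in STAT5fl/fl and at 179, 149 and 153 CPM in STAT5cKO libraries. After 4T1 CM the values were 304 and 361 CPM in STAT5fl/fl and at 170, 186 and 166 CPM in STAT5cKO libraries. The genotypes did not overlap under any of the 3 treatments, and the STAT5cKO libraries with rmGM-CSF lay near the unstimulated controls.

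In STAT5fl/fl cells Ccl6 rose 3.56-fold with rmGM-CSF (1.83 ± 0.13, adjusted p = 3.93e-09) and 1.90-fold with 4T1 CM (0.93 ± 0.13, adjusted p = 1.02e-05). In STAT5cKO cells the rises were 1.35-fold (0.43 ± 0.10, adjusted p = 0.00385) and 1.46-fold (0.55 ± 0.10, adjusted p = 0.000295). Without replicate 114, 115 or 116 the smaller of these, the rise with rmGM-CSF, no longer passed, with adjusted p = 0.0184, 0.0169 and 0.0107. The rmGM-CSF response was smaller in STAT5cKO cells (difference -1.40 ± 0.16, adjusted p = 3.06e-05), and the 4T1 CM response differed by -0.38 ± 0.16 (adjusted p = 0.289). Ccl6 was the only member whose genotype difference in the step from rmGM-CSF to 4T1 CM passed the test, at 1.02 ± 0.16 (adjusted p = 0.00113). In STAT5fl/fl cells it was 1.87-fold lower with 4T1 CM than with rmGM-CSF, and in STAT5cKO cells it differed between them by 0.12 ± 0.10 (adjusted p = 0.385). That call was lost without replicate 112 (adjusted p = 0.0202) or 113 (adjusted p = 0.0196).

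Between genotypes Ccl6 was 3.88-fold lower in STAT5cKO than in STAT5fl/fl cells with rmGM-CSF (-1.96 ± 0.11, adjusted p = 1.45e-09). It was 1.91-fold lower with 4T1 CM (-0.93 ± 0.11, adjusted p = 2.52e-05), and both calls were kept under all 15 alternatives. With DMEM it was 1.47-fold lower (-0.56 ± 0.12, adjusted p = 0.00771), a call that was lost without replicate 113 (-0.47, adjusted p = 0.122), 112 (0.0275), 115 (0.0261) or 116 (0.0214), and in a model of the DMEM libraries alone (0.0101).

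Ccl9 rose with both stimuli in both genotypes and, unlike Ccl6, was higher in STAT5cKO than in STAT5fl/fl cells before stimulation. With DMEM it was at 381 and 398 CPM in STAT5fl/fl and at 567, 507 and 537 CPM in STAT5cKO libraries. With rmGM-CSF it was at 1592 and 1761 CPM in STAT5fl/fl and at 1299, 1220 and 1115 CPM in STAT5cKO libraries. In 4T1 CM it was at 842 and 970 CPM in STAT5fl/fl and at 852, 947 and 828 CPM in STAT5cKO libraries. The genotypes were apart with DMEM, apart in the other direction with rmGM-CSF, and overlapped with 4T1 CM.

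Ccl9 rose 4.31-fold with rmGM-CSF in STAT5fl/fl (2.11 ± 0.096, adjusted p = 1.31e-11) and 2.26-fold in STAT5cKO cells (1.17 ± 0.076, adjusted p = 2.04e-09). The rise was smaller in STAT5cKO cells (difference -0.93 ± 0.12, adjusted p = 8.80e-05), and part of this difference lay in the DMEM level. With 4T1 CM it rose 2.33-fold in STAT5fl/fl (1.22 ± 0.094, adjusted p = 9.49e-09) and 1.63-fold in STAT5cKO cells (0.71 ± 0.076, adjusted p = 5.59e-07). The difference between these responses was -0.51 ± 0.12 (adjusted p = 0.0242). Without the STAT5cKO 4T1 CM library numbered 115 it was -0.57 ± 0.12 and passed (adjusted p = 0.00969). Between genotypes Ccl9 was 1.38-fold higher in STAT5cKO cells with DMEM (0.46 ± 0.086, adjusted p = 0.00365) and 1.38-fold lower with rmGM-CSF (-0.47 ± 0.083, adjusted p = 0.00067). With 4T1 CM it differed by -0.049 ± 0.084 (adjusted p = 0.757). The DMEM call was lost without replicate 112, 113, 114 or 116 (adjusted p = 0.0469, 0.0362, 0.0151 and 0.0114), and the rmGM-CSF call without replicate 113 (adjusted p = 0.0275).

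The ratio of Ccl6 to Ccl9 counts within a library separated the genotypes in every treatment. It was 0.432 to 0.464 in STAT5fl/fl and 0.195 to 0.236 in STAT5cKO libraries with DMEM. With rmGM-CSF it was 0.361 to 0.380 in STAT5fl/fl and 0.122 to 0.138 in STAT5cKO libraries. In 4T1 CM it was 0.361 to 0.373 in STAT5fl/fl and 0.197 to 0.2004 in STAT5cKO libraries. These neighbouring genes thus differed from each other in how they followed genotype, and a ratio within a library does not depend on its scaling.

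**Figure D3:**
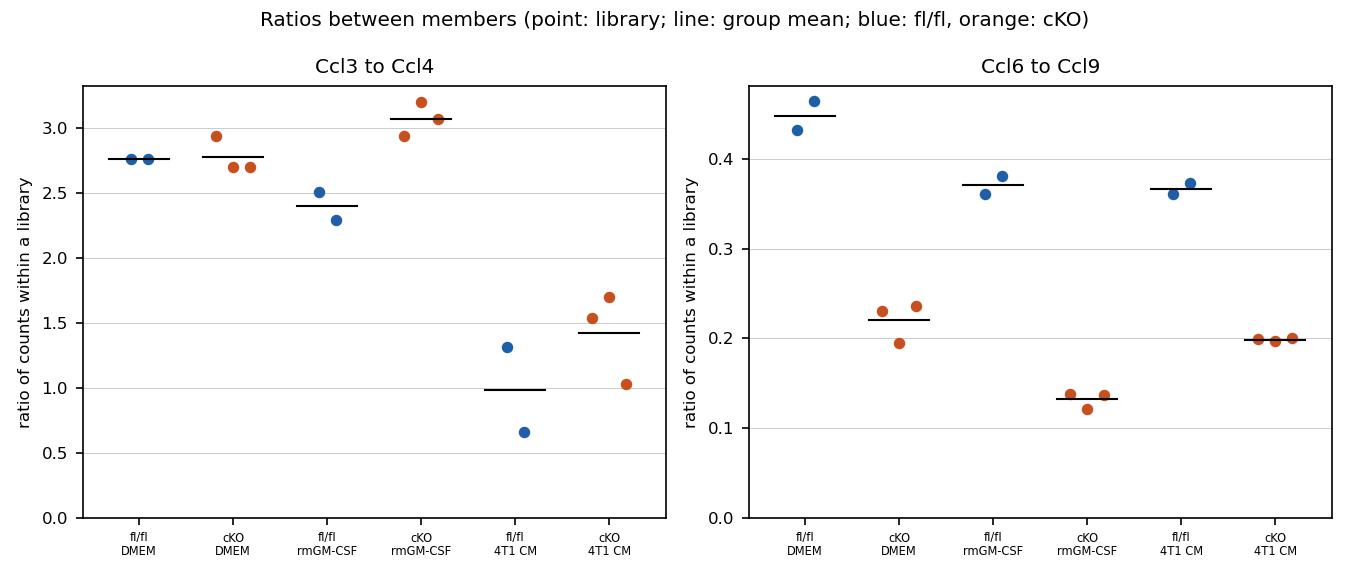
Ratio of counts within each library, for Ccl3 to Ccl4 (left) and Ccl6 to Ccl9 (right), by group; points are libraries and black lines are group means. The Ccl3 to Ccl4 ratio is lowest with 4T1 CM (0.661 to 1.70), and the Ccl6 to Ccl9 ratio is lower in STAT5cKO libraries (0.122 to 0.236) than in STAT5fl/fl libraries (0.361 to 0.464).

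Ccl5 was the least abundant member in 5 of the 6 groups and, without the library numbered 115, rose with rmGM-CSF in both genotypes. With DMEM it was at 2.69 and 2.40 CPM in STAT5fl/fl and at 3.91, 5.75 and 4.70 CPM in STAT5cKO libraries. With rmGM-CSF it was at 11.5 and 11.3 CPM in STAT5fl/fl and at 11.1, 14.99 and 14.4 CPM in STAT5cKO libraries. In 4T1 CM Ccl5 was at 4.58 and 4.60 CPM in STAT5fl/fl and at 3.74, 124 and 5.17 CPM in STAT5cKO libraries. The STAT5cKO values lay above the controls with DMEM and overlapped them after rmGM-CSF. Among the 4T1 CM libraries the STAT5cKO library numbered 115, with 2632 counts, was far from the other 2 of its group, which had 79 and 114.

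With all 15 libraries the spread of Ccl5 was so wide that 1 of its 9 differences between groups passed, the 9.23-fold higher mean with 4T1 CM than with DMEM in STAT5cKO cells (3.21 ± 0.90, adjusted p = 0.00696). Without the library numbered 115 this difference was -0.10 ± 0.20 (adjusted p = 0.705). The rise with rmGM-CSF was 2.16 ± 1.45 in STAT5fl/fl and 1.49 ± 1.01 in STAT5cKO cells with all libraries (adjusted p = 0.257 and 0.283). Without that library it was 2.16 ± 0.21 and 1.49 ± 0.15 (adjusted p = 2.98e-07 and 4.14e-07). The 4T1 CM response in STAT5fl/fl cells was 0.85 ± 1.67 with it and 0.85 ± 0.25 without it (adjusted p = 0.702 and 0.00819).

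The genotype difference of Ccl5 was 0.91 ± 1.49 in DMEM, 0.25 ± 1.04 after rmGM-CSF and 3.27 ± 1.09 after 4T1 CM (adjusted p = 0.781, 0.910 and 0.0530). Without the library numbered 115 these were 0.92 ± 0.22, 0.25 ± 0.15 and -0.038 ± 0.22 (adjusted p = 0.0159, 0.295 and 0.937), so none passed. The genotype difference in its rmGM-CSF response was -0.67 ± 1.84 with that library and -0.67 ± 0.27 without it (adjusted p = 0.943 and 0.211).

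**Figure D4:**
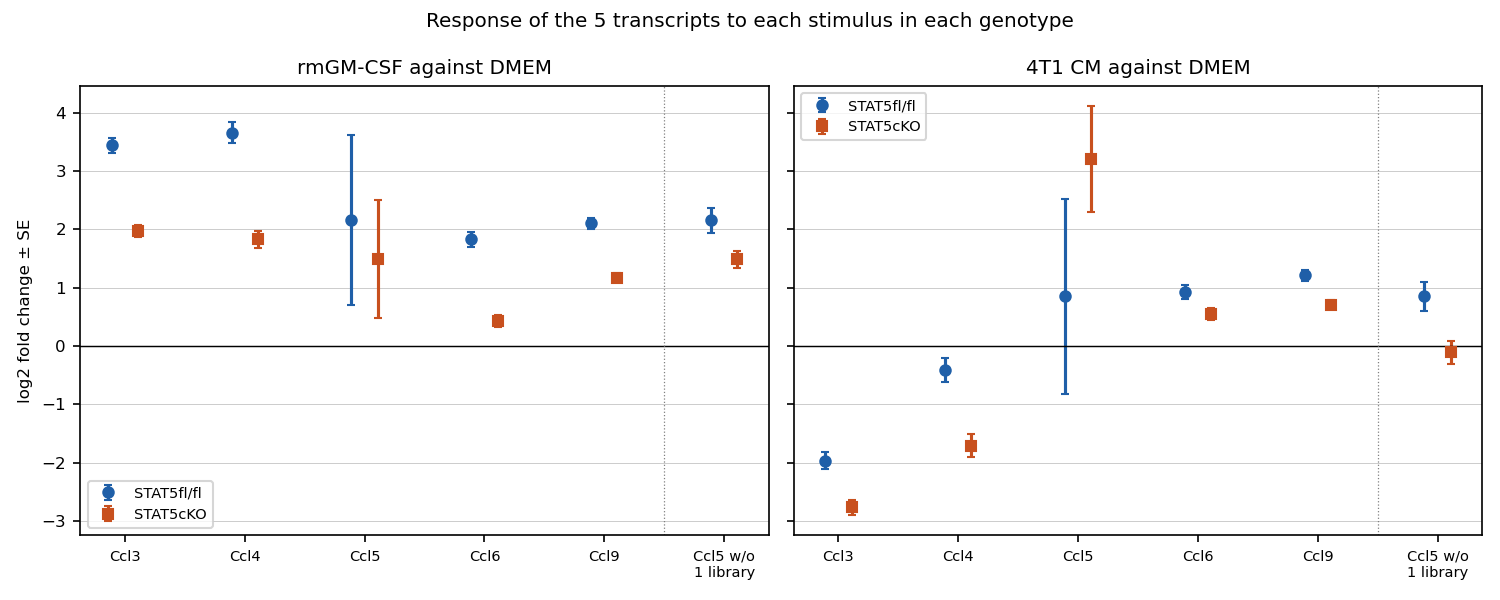
Log2 fold change against DMEM (vertical axis, error bars 1 SE) for rmGM-CSF (left) and 4T1 CM (right) in STAT5fl/fl (circles) and STAT5cKO cells (squares). The last position repeats Ccl5 without the STAT5cKO 4T1 CM library numbered 115. Values and error bars are from the model of all 15 libraries, and at the last position from the model without that library. The rmGM-CSF rises of Ccl3, Ccl4, Ccl6 and Ccl9 are smaller in STAT5cKO cells, and 4T1 CM lowers Ccl3 while it raises Ccl6 and Ccl9 in both genotypes.

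Counted over the family, rmGM-CSF raised 4 of 5 members in STAT5fl/fl cells and the same 4, Ccl3, Ccl4, Ccl6 and Ccl9, in STAT5cKO cells. Of all genes tested, 15.9% were higher and 28.5% were called in either direction in STAT5fl/fl cells, against 13.3% and 23.5% in STAT5cKO cells. The median log2 fold change of the 5 members was 2.16 in STAT5fl/fl and 1.49 in STAT5cKO cells, beside -0.0062 and -0.0035 over all genes. Without the library numbered 115 all 5 were higher in both genotypes. The comparisons with DMEM share the DMEM libraries of their genotype.

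With 4T1 CM, 3 of 5 members were called against DMEM in STAT5fl/fl cells, Ccl6 and Ccl9 higher and Ccl3 lower, beside 37.4% of all genes. In STAT5cKO cells all 5 were called, Ccl5, Ccl6 and Ccl9 higher and Ccl3 and Ccl4 lower, beside 37.6% of all genes, and without the library numbered 115 Ccl5 was not. Against rmGM-CSF, 4 of 5 members (all but Ccl5) were lower with 4T1 CM in STAT5fl/fl cells, beside 30.5% of genes called in either direction. Without the library numbered 115 Ccl5 was also lower there (-1.31 ± 0.20, adjusted p = 3.62e-05), so the count was 5. Ccl3 showed the widest gap in STAT5fl/fl cells, 42.4-fold (-5.41 ± 0.15, adjusted p = 1.60e-13), followed by Ccl4 with 16.7-fold (-4.06 ± 0.19, adjusted p = 2.96e-11). Ccl9 was 1.85-fold lower (-0.89 ± 0.093, adjusted p = 7.22e-07). In STAT5cKO cells Ccl3 was 26.7-fold, Ccl4 11.6-fold and Ccl9 1.38-fold lower with 4T1 CM than with rmGM-CSF, 3 of 5 members beside 34.1% of genes. The count was 4 without the library numbered 115, where Ccl5 was lower by the same test (-1.59 ± 0.17, adjusted p = 9.57e-07).

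Between genotypes, 4 of 5 members were lower in STAT5cKO cells with rmGM-CSF, where 6.24% of all genes were lower and 9.80% were called in either direction. The median of the 5 was -1.46, beside 0.00048 over all genes. With 4T1 CM 3 of 5 were lower (Ccl3, Ccl4 and Ccl6), where 3.57% of all genes were lower and 7.70% were called; without the library numbered 115 the count was 2. With DMEM 2 of 5 were called, Ccl6 lower and Ccl9 higher, where 2.49% of all genes were called. The genotype difference in the response to rmGM-CSF passed for 4 of 5 members, each with the smaller rise in STAT5cKO cells, where 2.22% of all genes had such a negative difference and 3.11% were called. For the response to 4T1 CM over DMEM 0 of 5 passed with edgeR's quasi-likelihood test (1.27% of all genes did), although 4 of 5 had an unadjusted p under 0.05. With DESeq2 or edgeR's likelihood ratio test 3 of 5 passed (Ccl3, Ccl4 and Ccl9), and without the low-count filter 2 (Ccl4 and Ccl9). The same 2 passed with the replicate number as a block in the model. For 4T1 CM over rmGM-CSF 1 of 5 passed, Ccl6, where 1.47% of all genes did.

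**Figure D5:**
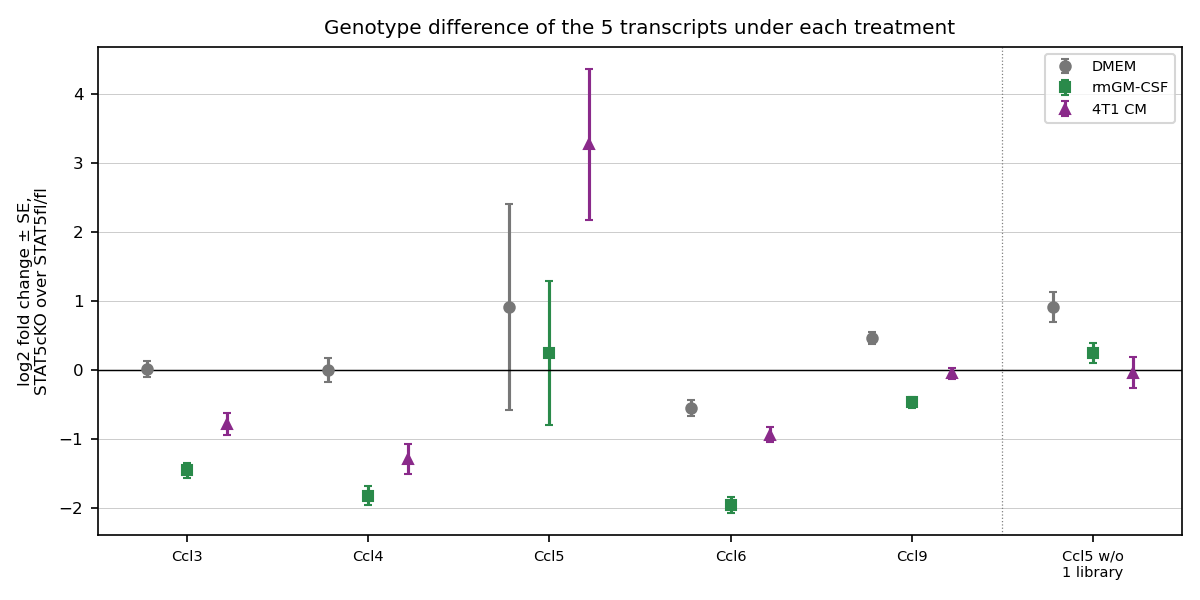
Log2 fold change of STAT5cKO over STAT5fl/fl cells (vertical axis, error bars 1 SE) for each member in DMEM (circles), after rmGM-CSF (squares) and after 4T1 CM (triangles); the last position repeats Ccl5 without the STAT5cKO 4T1 CM library numbered 115. Values for rmGM-CSF lie below 0 for Ccl3, Ccl4, Ccl6 and Ccl9, and the DMEM value lies above 0 for Ccl9 and below 0 for Ccl6.

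Together the 5 genes took 0.0647 to 0.0687% of counts in STAT5fl/fl DMEM libraries and 0.269 to 0.303% with rmGM-CSF. In STAT5cKO libraries the same shares were 0.0712 to 0.0825% and 0.150 to 0.170%. With 4T1 CM they were 0.113 to 0.132% in STAT5fl/fl and 0.0978 to 0.120% in STAT5cKO libraries, and the genotypes overlapped. Ccl9 alone made up 54.8 to 56.4% of the 5-gene counts in STAT5fl/fl libraries with rmGM-CSF and 72.4 to 75.7% in STAT5cKO libraries.

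Receptors of these chemokines, Ccr1 and Ccr3, were also followed. Ccr1 averaged 3.40 CPM in DMEM, 37.1 after rmGM-CSF and 125 after 4T1 CM in STAT5fl/fl cells, and 3.53, 22.5 and 75.4 CPM in STAT5cKO cells. Ccr3 was low, at 2.02, 9.25 and 10.4 CPM in STAT5fl/fl and 1.99, 4.40 and 6.31 CPM in STAT5cKO cells. The Ccr1 mean was thus highest with 4T1 CM, the stimulus with which Ccl3 was lowest.

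Ccr1 was lower in STAT5cKO cells after rmGM-CSF (-0.72 ± 0.098, adjusted p = 4.68e-05) and after 4T1 CM (-0.72 ± 0.084, adjusted p = 1.73e-05). Ccr3 differed by -1.04 ± 0.28 and -0.73 ± 0.25 and did not pass (adjusted p = 0.0173 and 0.0642). The genotype difference in the rmGM-CSF response was -0.78 ± 0.20 for Ccr1 and -1.02 ± 0.50 for Ccr3, and neither passed (adjusted p = 0.0259 and 0.377).

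Of 19 listed receptors and signalling partners of MIP chemokines, 15 were tested. With rmGM-CSF 9 rose and 3 fell in STAT5fl/fl cells, and 8 rose and 1 fell in STAT5cKO cells, beside 28.5% and 23.5% of all genes called in either direction. Rgs2, which shortens G protein signals, fell in both (-1.82 ± 0.10 and -0.83 ± 0.079, adjusted p = 2.02e-10 and 2.92e-07). Between genotypes 2 were higher (Rgs1, Rgs2) and 3 lower (Ccr1 and Srgn among them) in STAT5cKO cells with rmGM-CSF. With 4T1 CM 3 were higher (Ccrl2, Rgs1, Arrb1) and 2 lower (Ccr1 among them). Of all genes, 9.8% and 7.7% were called in either direction in these 2 comparisons. Ccrl2, an atypical receptor that binds chemerin, was higher by 1.35 ± 0.079 with 4T1 CM in STAT5cKO cells (adjusted p = 7.57e-09). The median genotype difference of the 15 was -0.018 with rmGM-CSF and -0.00079 with 4T1 CM, against 0.00048 and 0.0098 over all genes.

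Of 14 other CC chemokine genes 7 were tested, and 5 of them were lower in STAT5cKO cells with rmGM-CSF, beside 6.24% of all genes, with a median of -3.78. Ccl7, a monocyte attractant, differed by -4.96 ± 0.20 (adjusted p = 1.05e-11), beside -1.96 for Ccl6, the most affected MIP-type member. Ccl17 had at most 1 count in every STAT5cKO library and 396 and 406 counts in the STAT5fl/fl libraries with rmGM-CSF. With 4T1 CM against DMEM, 6 of the 7 rose and 0 fell in STAT5fl/fl cells, and 3 rose in STAT5cKO cells. Of all genes, 37.4% and 37.6% were called in either direction, so the STAT5cKO count was near that share. Ccl7 rose by 7.71 ± 0.41 in STAT5fl/fl cells with 4T1 CM (adjusted p = 6.09e-11), whereas Ccl3 fell. Ccl7 had only 2 and 3 counts in the STAT5fl/fl DMEM libraries, so the size of its rise is uncertain.

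All 15 listed early NF-kB target genes rose with rmGM-CSF in both genotypes, beside 15.9% and 13.3% of all genes in STAT5fl/fl and STAT5cKO cells. Their median log2 fold changes were 3.01 and 2.65. Between genotypes with rmGM-CSF 4 of the 15 were lower and 1 higher in STAT5cKO cells, with a median of -0.0024, beside 9.8% of all genes called in either direction. Il1a and Il1b were lower (-1.73 ± 0.15 and -1.51 ± 0.16, adjusted p = 2.25e-07 and 3.68e-06), by about as much as Ccl3. With 4T1 CM against DMEM 14 rose in STAT5fl/fl and 12 in STAT5cKO cells and 0 fell, beside 37.4% and 37.6% of all genes called in either direction. The medians were 0.87 and 0.76, whereas Ccl3 fell with 4T1 CM in both genotypes and Ccl4 fell in STAT5cKO cells. Of the 15 listed regulators and genes of the interferon response, 3 rose in STAT5fl/fl cells with rmGM-CSF, and 6 rose and 1 fell in STAT5cKO cells, beside 15.9% and 13.3% of all genes that rose. Between genotypes 3 of them were lower with rmGM-CSF (Cxcl10, Irf8 and Irf1), beside 6.24% of all genes, led by Cxcl10 at -1.83 ± 0.13 (adjusted p = 1.76e-08). With 4T1 CM 1 was lower, Irf8, beside 3.57% of all genes lower and 7.7% called in either direction. That count was near the share called.

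The transcripts whose log2 CPM followed each member most closely over the 15 libraries differed between members. These correlations are descriptive, rest on libraries that share treatments and genotypes, and were ranked over all tested genes. For Ccl3 they were Stx3, Dse and Lrch3 (r = 0.985, 0.985 and 0.983), and for Ccl4 Klf3, Phgdh and Peli1 (r = 0.989, 0.976 and 0.973). For Ccl6 they were Eps8, Clec7a and Smap2 (r = 0.975, 0.968 and 0.967), and for Ccl9 Myd88, Morf4l2 and Rarg (r = 0.981, 0.977 and 0.977). Over the 6 group means the same r were 0.993, 0.992 and 0.993 for Ccl3, 0.994, 0.988 and 0.992 for Ccl4, 0.980, 0.983 and 0.982 for Ccl6, and 0.994, 0.986 and 0.994 for Ccl9. For Ccl5 they were Tapbp, AW112010 and Pgap2 (r = 0.912, 0.890 and 0.880; 0.922, 0.898 and 0.837 over the group means), and without the library numbered 115 Crk, Acod1 and Cd69 took their place (r = 0.968, 0.967 and 0.965).

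Among the members, Ccl3 and Ccl4 were the closest pair (r = 0.962 over 15 libraries). Ccl6 and Ccl9, the closest neighbours on the chromosome, had r = 0.639, and Ccl3 and Ccl6 had r = 0.332. The r of Ccl5 with Ccl9 was 0.562 over 15 libraries and 0.838 over the 14 others once the library numbered 115 was left out, and that with Ccl3 was 0.0908 and 0.712.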

How the data were processed

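The authors sequenced total RNA from cultured macrophages as stranded TruSeq libraries. Per the labels and the study's methods, reads were trimmed with Trimmomatic 0.33, aligned to GRCm38 with HISAT2 2.1.0 and counted per gene with featureCounts 1.6.2 against Ensembl release 99 in reverse-stranded mode. The deposited values are raw counts per gene for 15 libraries, with 16016736 to 22883108 counts each; the CPM that 3 counts correspond to covers counting error only. Symbols were matched for 55144 of 55385 identifiers. The 13005 genes that exceeded 1 CPM in 2 or more libraries were normalized by RLE, and fitted with edgeR 4.0.16 (R 4.3.3) in one model of 6 groups; the quasi-likelihood test gave p-values that were adjusted by Benjamini-Hochberg over all tested genes, and a gene was called at an adjusted p under 0.01, following the study's normalization, filter and threshold. SE was the absolute log2 fold change over the square root of F. CPM values used effective library sizes, and CPM per kb used summed exon length. Correlations used log2 CPM with a prior count of 2. Alternatives used limma 3.58.1 and DESeq2 1.42.0, other normalizations, filters and tests, and leaving out each replicate. The analysis was tested on simulated data.

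The members and gene lists were chosen with earlier results of these data known. Named genes were the 5 members, Stat5a and Stat5b, the receptors Ccr1 and Ccr3, up to 4 examples per list and comparison by smallest adjusted p, and the 3 genes most correlated with each member; Saa3, Hp, Irf7 and Ccl17 counts, and the list members named without a value, were added after their values were seen. Replicate numbers were not shared between genotypes, and no label says that a number marks a mouse, so p-values measure the spread between these libraries. The model had no replicate term. Promoter sequences are from RefSeq. One item of the gene lists is not reported here.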

Additional observations from a re-analysis of the deposited data

Results flagged for a closer look

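The response to rmGM-CSF over DMEM differed between the genotypes by the interaction test for Ccl3 (-1.47 ± 0.16 on the log2 scale, adjusted p = 1.10e-05), Ccl4 (-1.82 ± 0.23, adjusted p = 6.81e-05), Ccl6 (-1.40 ± 0.16, adjusted p = 3.06e-05) and Ccl9 (-0.93 ± 0.12, adjusted p = 8.80e-05), with the smaller rise in STAT5cKO cells each time. The step from rmGM-CSF to 4T1 CM differed between the genotypes for Ccl6 (1.02 ± 0.16, adjusted p = 0.00113), which fell by 0.91 ± 0.13 in STAT5fl/fl cells and differed by 0.12 ± 0.10 in STAT5cKO cells.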

How the results depend on the processing

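Of 933 fold changes of the 5 members under alternative settings, 858 kept their direction and side of the threshold, 28 lost and 30 gained a call, and 17 changed sign; DESeq2 gave 12 values, all of Ccl5, no adjusted p. The members called between genotypes with DMEM were 2, falling to 1 in a model of those libraries alone and to between 0 and 1 without replicate 114, 115 or 116. Calls were also lost without 112 or 113, which leaves 1 library in each control group. With 4T1 CM they were 3, and 1 in a model of those libraries alone. There the Ccl3 call was also lost without replicate 112, 114 or 115, with limma, and without only the 4T1 CM library numbered 115. The Ccl4 call was also lost without replicate 113. For the genotype difference in the response to 4T1 CM over DMEM the count of 0 became 3 at an adjusted p under 0.05, 3 with the likelihood ratio test, 3 with DESeq2, 2 without the low-count filter and 1 without the STAT5cKO 4T1 CM library numbered 115 (an alternative chosen after seeing the data), and ranged from 0 to 1 when replicates were left out. For 4T1 CM over rmGM-CSF the count of 1 became 2 with DESeq2 and ranged from 0 to 1. The cause of these shifts was not tested.

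With the replicate number as a block (the replicate block), that count of 0 became 2, Ccl4 (adjusted p = 0.000481) and Ccl9 (adjusted p = 0.00475), and the genes called in this comparison went from 165 to 302; no other call of a member changed. Same-numbered libraries deviated from their group means with r from 0.0548 to 0.214, above 0 in all 15 pairs and over 0.1 in 11. In a group of 2 libraries the deviations mirror each other, so 112 and 113 gave the same values, which are not independent. These r do not settle whether a number marks a shared source, and no label says so. The block was therefore kept as an alternative only. Genotype comparisons within a treatment could not take the number as a block; as a random effect in limma it ended the Ccl3 call with 4T1 CM (-0.77, adjusted p = 0.0133).

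Values near 0 changed sign. With replicates left out, the DMEM genotype difference of Ccl3 ranged from -0.065 to 0.096 (below 0 also without 112, -0.049, and 114, -0.003) and that of Ccl4 from -0.099 to 0.072 (-0.055 without 112; -0.00101 with limma), and the 4T1 CM genotype difference of Ccl9 from -0.15 to 0.054. For Ccl5 the ranges were -0.0386 to 3.82 between genotypes with 4T1 CM, -0.80 to 2.87 and -0.19 to 3.60 for the genotype difference in the 4T1 CM response over DMEM and over rmGM-CSF, and -1.50 to 2.29 for 4T1 CM against rmGM-CSF in STAT5cKO cells (-0.00124 with limma), the lowest each time without replicate 115. Without its 4T1 CM library alone these were -0.0376, -0.95, -0.28 and -1.59, and the change of Ccl5 over DMEM in STAT5cKO cells was -0.10.

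Genes called depended on the number of libraries. Between genotypes with DMEM 324 were called, 910 at 0.05, 608 with the likelihood ratio test, 557 with DESeq2 and as few as 47 with a replicate left out (113). With rmGM-CSF 1275 were called, 2145 at 0.05 and 546 without 113; with 4T1 CM 1001, 1957 at 0.05, 280 in the libraries of the comparison alone and 334 without 113. In STAT5fl/fl cells, without 113, 3704 became 1736 for rmGM-CSF, 4867 became 2671 for 4T1 CM and 3968 became 1696 between them, and in STAT5cKO cells without 115 3053 became 1833 for rmGM-CSF. The genotype differences in response, 404, 165 and 191, became 622, 423 and 346 at 0.05 and 134, 24 and 79 without 113; the latter 2 became 332 and 302 with the likelihood ratio test and 363 and 308 with DESeq2, and 165 became 79 in the libraries of the comparison alone. With 2 control libraries, each control group left with 1 library was assumed to vary like the others.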
